A study of Mus musculus with 9 samples.

Results

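The transcriptome of deprived BV2 cells that also received A-485 was compared with that of deprived cells without the compound. BV2 is an immortalized mouse microglial line. The comparison used 6 of the 9 libraries of the series, 3 labelled OGD + A-485 and 3 labelled OGD, and the 3 control libraries served to show where each gene stood without deprivation. Of 54532 genes in the table, the 11980 with a mean of at least 1 FPKM (fragments scaled to gene length and library depth) over the 6 libraries were tested. Catsperz was the last gene inside that limit, at 1.0003 FPKM, and the predicted gene Gm37819 the first outside it, at 0.999 FPKM. OGD cells were kept for 24 h in low-glucose medium with 4% serum at 4% oxygen. OGD + A-485 cells had the same deprivation with the compound at 50 μM, and control cells stayed in complete medium with 10% serum outside the hypoxic chamber. The 24 h and 50 μM are those of the study's experiments that led up to the transcriptome. No control culture with A-485 alone was analysed here, so cells with and without the compound were compared only under deprivation. No vehicle was stated for the other groups. All libraries came from 1 cell line, and the labels do not say that they were separate cultures, so each p-value measures the spread between these libraries, which may be technical.

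A-485 is a competitive inhibitor of the acetyl-coenzyme A site of p300 and CBP, the paralogous lysine acetyltransferases encoded by Ep300 and Crebbp. Both enzymes acetylate histones at enhancers and promoters, where they serve as coactivators of many transcription factors, and p300 has also been described as a lactyltransferase for histones. Oxygen-glucose deprivation (OGD) models ischemia in culture and is known to shift microglia towards glycolysis and inflammatory gene expression.

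The libraries held 12593250 to 16091038 reads on genes, and the line expressed the myeloid genes that define it. Csf1r, the receptor for colony stimulating factor 1, had 24.2 ± 1.05 FPKM in control, 44.6 ± 0.987 FPKM under OGD and 131 ± 2.58 FPKM under OGD + A-485 (mean ± SD, n = 3 libraries, as for each mean below). Of the genes particular to microglia in the brain, Tmem119 stood near 1.4 FPKM in every group and P2ry12 and Sall1 were at or near 0. Markers of other cell types were sparse: 1 of 12 neuronal, 1 of 10 astrocytic, 1 of 12 oligodendroglial, 2 of 14 fibroblast or endothelial and 1 of 16 lymphoid or granulocytic markers reached the expression limit, and 4 to 5 of each list were at 0 in both groups compared. The summed level of the neuronal list went from 12.03 to 13.57 FPKM in the OGD libraries and from 5.05 to 5.52 FPKM in the OGD + A-485 libraries, most of it the synaptic vesicle gene Syn1 (log2 fold change -1.31). That of the astrocytic list went from 53.5 to 54.5 FPKM and from 77.9 to 80.4 FPKM, almost all of it the glycolytic gene Aldoc (log2 fold change 0.55). The lymphoid and granulocytic list summed to 0.30 to 0.60 FPKM and to 1.70 to 3.37 FPKM. Oligodendroglial markers summed to 14.8 to 15.9 FPKM and to 11.3 to 13.1 FPKM, and fibroblast and endothelial markers to 25.2 to 26.5 FPKM and to 24.99 to 25.88 FPKM. In a bulk library, a loss of cells that express a gene and a loss of its RNA in each cell cannot be told apart.

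The OGD + A-485 libraries also differed from the rest over long stretches of neighbouring genes. For each gene, the median log2 fold change of the 25 tested genes on either side was taken. In OGD + A-485 against OGD these medians went from -0.67 to 0.72, and 1343 genes (11.2%) stood beyond 0.3 in either direction. In OGD against control the range was -0.32 to 0.44, with 61 genes (0.51%) beyond 0.3. Runs of at least 50 genes beyond 0.3 occurred 10 times, 3 of them higher and 7 lower under OGD + A-485, and not at all in OGD against control. On chromosome 14, 129 genes from position 46882854 to 63193856 had a median of 0.49, and on chromosome 4, 105 genes from 147860778 to 156247616 had a median of -0.51. In each of the 10 runs every OGD + A-485 library stood past every OGD and control library. The part of these stretches in the changes of single genes was not tested. Whether the OGD + A-485 cultures shared a passage or clone with the others was not stated. A difference between cultures and one from the compound therefore cannot be told apart. With the median of its neighbours subtracted from each gene, 1545 genes were called higher and 1678 lower, and each of the 45 genes named below by rule kept its call.

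**Figure D1:**
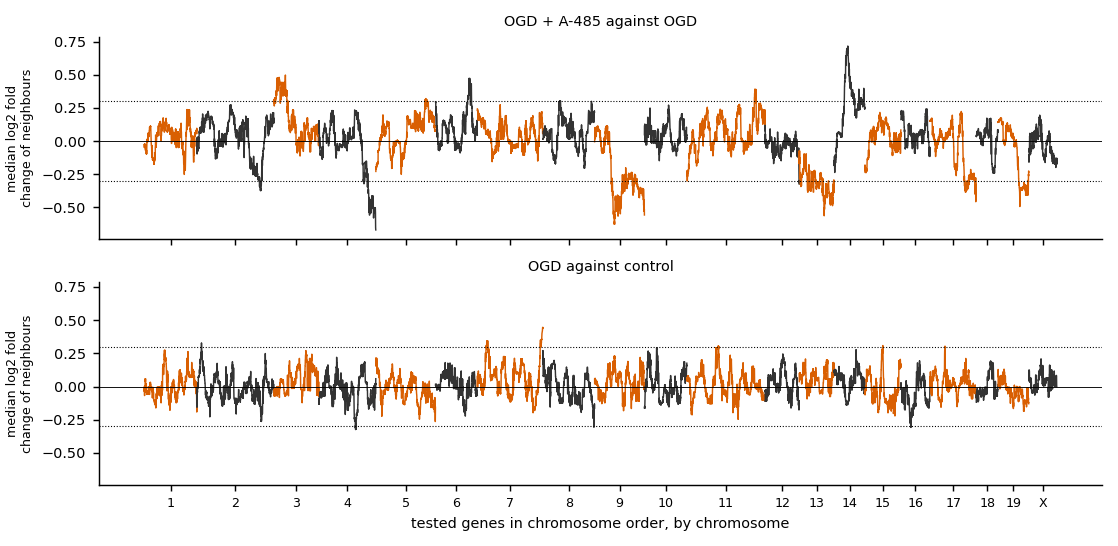
Median log2 fold change of the 25 tested genes on either side of each gene (vertical axis), in gene order along the chromosomes (horizontal axis), for OGD + A-485 against OGD and for OGD against control, with colors alternating by chromosome and dotted lines at ±0.3. The first comparison leaves the band of ±0.3 for 1343 genes and in 10 long runs, the second for 61 genes and in no long run.

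A large share of the transcriptome differed between OGD + A-485 and OGD, in both directions. Counting genes whose p fell under 0.01 with a log2 fold change beyond ±0.5, 1691 genes (14.1% of 11980) were higher and 1753 (14.6%) lower than under OGD alone. The median log2 fold change over all tested genes was 0.02, with quartiles of -0.33 and 0.34, and the median SE was 0.08. When FPKM values were instead rescaled to equal totals, 1301 genes were higher and 2194 lower, 37.2% higher among those called against 49.1% in the fit reported, and the median of all genes moved to -0.08. More than 4-fold changes were found in 165 genes that rose and 166 that fell. The libraries of the groups compared did not overlap for 1686 of the 1691 higher genes and 1752 of the 1753 lower genes, where 33.4% of all tested genes had every OGD + A-485 library above every OGD library and 31.7% had every one below. Fold changes are on the log2(FPKM + 0.1) scale, which understates the change of low genes, and each test named here is limma's moderated test over the 9 libraries with Benjamini-Hochberg adjusted p over all 11980 genes.

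**Figure D2:**
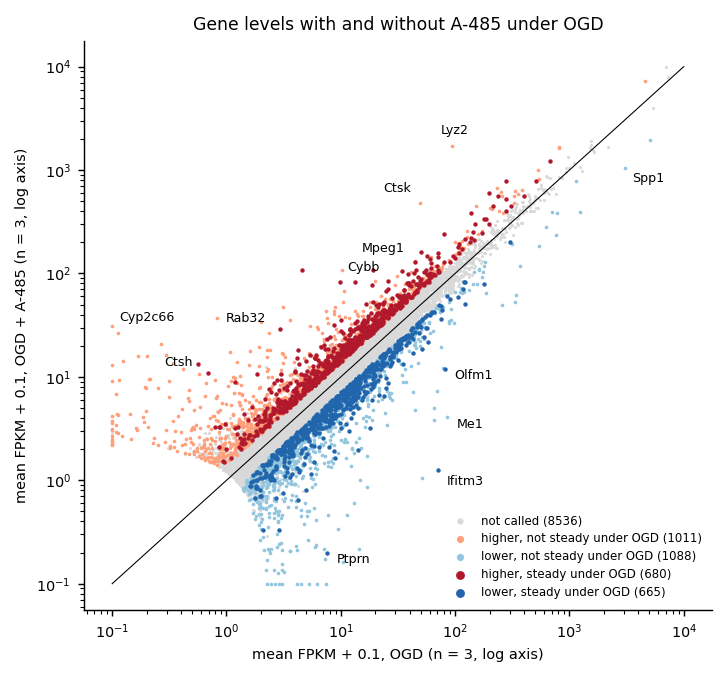
Mean level of each tested gene under OGD (horizontal axis) and under OGD + A-485 (vertical axis), as mean FPKM + 0.1 on log axes, 3 libraries per group, with dark points for genes steady under OGD (680 higher, 665 lower), light points for other called genes and gray points for genes not called. The 1691 genes called higher lie above the diagonal and the 1753 called lower beneath it, at low and at high levels alike.

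The messages of the target enzymes themselves changed little. Ep300 stood at 13.6, 14.6 and 14.3 FPKM in control, 12.6, 13 and 13 FPKM under OGD and 15.4, 15 and 13.3 FPKM under OGD + A-485. Its log2 fold change of 0.18 (SE 0.06, adjusted p = 0.0316) was under the fold limit, and the highest OGD library lay below the lowest OGD + A-485 library. Crebbp stood at 5.41, 5.44 and 5.5 FPKM in control, 5.16, 4.95 and 4.86 FPKM under OGD and 6.79, 7.06 and 5.97 FPKM under OGD + A-485, or 0.40 on the log2 scale (SE 0.07, adjusted p = 9.09e-04), also under the fold limit. Of 14 acetyltransferase genes none was called higher, and the 1 called lower was Kat7 (log2 fold change -0.55), a MYST family enzyme. Of 17 deacetylase and sirtuin genes, 4 fell and none rose. Those with the largest falls were the class IIa deacetylase genes Hdac7 (-1.74) and Hdac9 (-1.11) and the mitochondrial sirtuin gene Sirt4 (-0.78). Of 22 genes for acetyl-lysine readers and elongation factors, 1 rose and 2 fell: Hexim1, an inhibitor of the elongation kinase P-TEFb (0.94), Ell2, a subunit of the super elongation complex (-1.48), and Brd9, a bromodomain protein (-0.53). Enzyme activity and acetylation were not measured by these libraries.

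Of the 3444 genes called, 1345 were ones whose change with deprivation by itself lay within a set limit. A gene was taken as steady under OGD where the 95% confidence interval of its OGD against control log2 fold change lay within ±0.5, and 5221 genes (43.6%) met this, with Pde12 last inside the limit at 0.4999 and the predicted gene Gm9755 first outside it at 0.5001. Among these steady genes 680 (13%) were higher and 665 (12.7%) lower under OGD + A-485, 25.8% in all, against 31.1% of the genes that were not steady. Of these 1345 genes, 82.8% were also called in the same direction against control (558 higher, 555 lower), where 19.9% of all tested genes were higher and 19% lower. This contrast shares the OGD + A-485 libraries with the first, so its values are given beside the others and not as a second test.

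The steady genes that rose most included genes known from macrophages and phagocytes (gene positions are those of GRCm38). Cybb (ENSMUSG00000015340, chrX:9435252-9487771), the catalytic subunit of the phagocyte NADPH oxidase, had 7.71, 8.28 and 7.36 FPKM in control, 9.36, 10.3 and 9.3 FPKM under OGD and 84, 85.8 and 80.6 FPKM under OGD + A-485 (log2 fold change 3.10, SE 0.06, adjusted p = 3.43e-09). Mpeg1 (ENSMUSG00000046805, chr19:12460779-12465284), a pore-forming protein of phagosomes, had 18.6, 19.6 and 18.2 FPKM in control, 18.9, 18.1 and 19.6 FPKM under OGD and 106, 109.7 and 107 FPKM under OGD + A-485 (log2 fold change 2.51, SE 0.04, adjusted p = 2.11e-09). Adgre1 (ENSMUSG00000004730, chr17:57358691-57483527), which encodes the macrophage antigen F4/80, had 21.3, 21.2 and 19.8 FPKM in control, 18.5, 18.8 and 19.1 FPKM under OGD and 78.6, 79.2 and 74.6 FPKM under OGD + A-485 (log2 fold change 2.04, SE 0.04, adjusted p = 6.26e-09). For each of these 3 genes all OGD + A-485 libraries stood at least 3 times above any library of the other groups, while control and OGD lay close together.

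Other steady risers acted in endosomes, in transcription and at the cell surface. Ctsh, a lysosomal cysteine protease, rose from 0.733, 0.478 and 0.553 FPKM under OGD to 11, 10.7 and 10.8 FPKM with A-485 (log2 fold change 4.01, SE 0.18, adjusted p = 3.25e-07), with control at 0.715, 0.562 and 0.453 FPKM and a median change of -0.36 in its neighbouring genes. Rab32, a small GTPase of lysosome-related organelles, had 3.58, 3.27 and 3.46 FPKM in control, 3.29, 2.63 and 2.61 FPKM under OGD and 28.4, 29.8 and 29.2 FPKM under OGD + A-485 (log2 fold change 3.32, SE 0.09, adjusted p = 2.07e-08). Maf, a basic leucine zipper factor of macrophages, had 1.02, 0.937 and 0.952 FPKM in control, 1, 1.38 and 0.906 FPKM under OGD and 8.42, 9.56 and 8.58 FPKM under OGD + A-485 (log2 fold change 2.92, SE 0.15, adjusted p = 5.45e-07). No library of Ctsh, Rab32 or Maf from the OGD + A-485 group came near the range of the other 6. Asb4, a subunit of a ubiquitin ligase, had the largest change among steady genes (log2 fold change 4.59, SE 0.16, adjusted p = 8.47e-08) and went from 0.461 ± 0.0688 to 13.3 ± 0.733 FPKM. The remaining genes of the 12 were F7, which encodes coagulation factor VII (log2 fold change 2.63), Cd84, a SLAM family receptor (2.54), Cd38, an NAD-consuming ectoenzyme (2.11), Tlr1, a lipopeptide receptor that pairs with Tlr2 (1.89), and Myo1f, an unconventional myosin of myeloid cells (1.84). Counting by strand was not stated, and Cd38 overlaps the predicted gene Gm16015, so its value may hold reads of both.

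Several steady genes fell to a small part of their level with A-485. Ifitm3 (ENSMUSG00000025492, chr7:141009586-141010770), an interferon-induced membrane protein that restricts viral entry, had 75.7, 76.7 and 70.5 FPKM in control, 74.7, 69.8 and 67.6 FPKM under OGD and 0.808, 1.31 and 1.33 FPKM under OGD + A-485 (log2 fold change -5.86, SE 0.15, adjusted p = 2.02e-08), the largest fall among steady genes. Ptprn (ENSMUSG00000026204, chr1:75247027-75264502), a protein of dense-core secretory vesicles, had 8.3, 8.18 and 8.81 FPKM in control, 6.91, 6.89 and 8.75 FPKM under OGD and 0.0805, 0.0894 and 0.131 FPKM under OGD + A-485 (log2 fold change -5.25, SE 0.13, adjusted p = 1.77e-08). Olfm1 (ENSMUSG00000026833, chr2:28192992-28230736), a secreted olfactomedin, had 87.5, 90.0 and 89.7 FPKM in control, 81.6, 82.2 and 82.6 FPKM under OGD and 12.1, 11 and 12.6 FPKM under OGD + A-485 (log2 fold change -2.78, SE 0.05, adjusted p = 2.11e-09). In all 3 the control and OGD libraries lay within a narrow range and the OGD + A-485 libraries far beneath it. Ifitm3 has close paralogs in the same cluster, and how reads that fit several of them were counted was not stated.

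The rest of the 12 steady genes with the largest falls had varied roles. Ffar4, a receptor for long-chain fatty acids, fell from 13.5, 13.6 and 15 to 1.97, 1.77 and 1.84 FPKM (log2 fold change -2.85, SE 0.07, adjusted p = 1.83e-08). Dock9, an activator of Cdc42, fell from 7.78, 9.1 and 9.49 to 1.44, 1.65 and 1.58 FPKM, although its neighbouring genes had a median of 0.33. L1cam, a neural cell adhesion molecule, fell from 5.42, 5.06 and 5.55 to 1.13, 1.08 and 0.935 FPKM. These genes lay apart from their OGD levels in every library. Tcam1 (log2 fold change -2.51), Mad2l2, a subunit of DNA polymerase zeta and of shieldin (-2.19), Stard10, a lipid transfer protein (-1.98), Cd276, an immune checkpoint ligand (-1.98), Pkn3, a protein kinase (-1.88), and Neil1, a DNA glycosylase of base excision repair (-1.72), made up the 12. The neighbouring genes of Neil1 had a median of -0.55, those of Cd276 -0.46 and those of Mad2l2 -0.36, so these 3 stood in stretches that were lower as a whole. Pkn3 overlaps Zdhhc12 on the opposite strand.

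**Figure D3:**
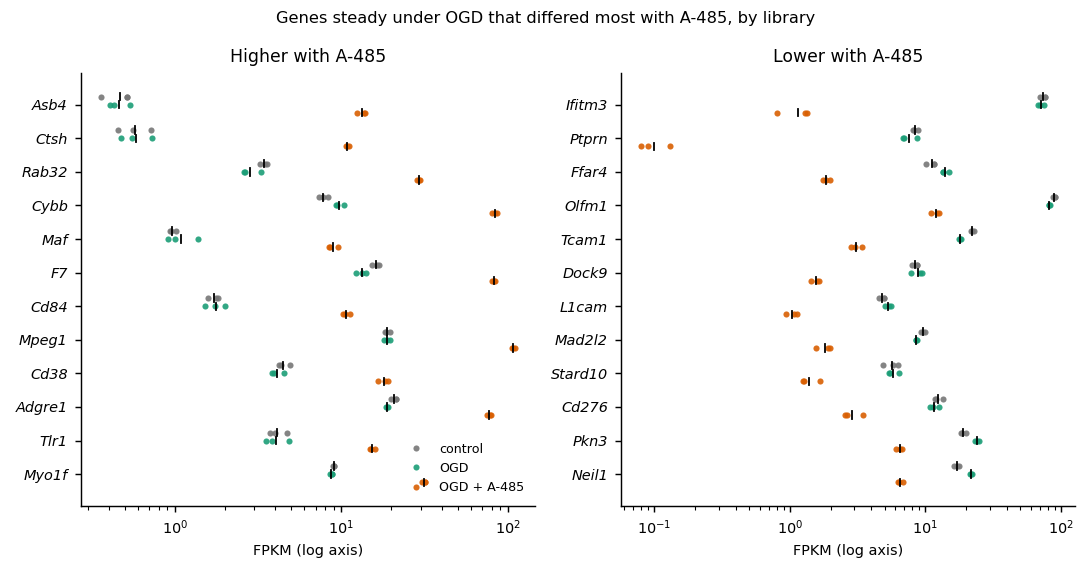
FPKM in each library (log axis) of the 12 rising and 12 falling genes that were steady under OGD, with 3 points and a bar at the mean per group. The OGD + A-485 points stand apart from both other groups for each of the 24 genes, and control and OGD differ by less, though without overlap in genes such as Cybb, Pkn3 and Neil1.

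Gene lists drawn up by function, 56 in all, showed where the calls gathered. Of the lists with at least 10 tested members, 13 had at least 40% of them called higher and 4 at least 40% called lower, beside 14.1% and 14.6% over all genes. The counts below are of members that reached the expression limit. A member that did so only in the group where it was high could be counted only in that direction. This held for 3 of the 20 phagocytic genes, 4 of the 26 pattern recognition genes and 4 of the 28 negative regulators, and of those at the limit in both groups 12 of 17 and 11 of 22 rose and 9 of 24 fell. Counted only over members at the limit in both groups, the negative regulators and the xenobiotic list (3 of 11 higher) fell under 40%. The list of purinergic and adenosine genes kept 7 such members, too few to be counted. The 13 and 4 therefore rest in part on members that could be counted in 1 direction only. No G2/M gene and 1 sterol gene stood at the limit in 1 group only. The lists were written from general knowledge, with earlier results of these data known, and were not tested as sets.

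**Figure D4:**
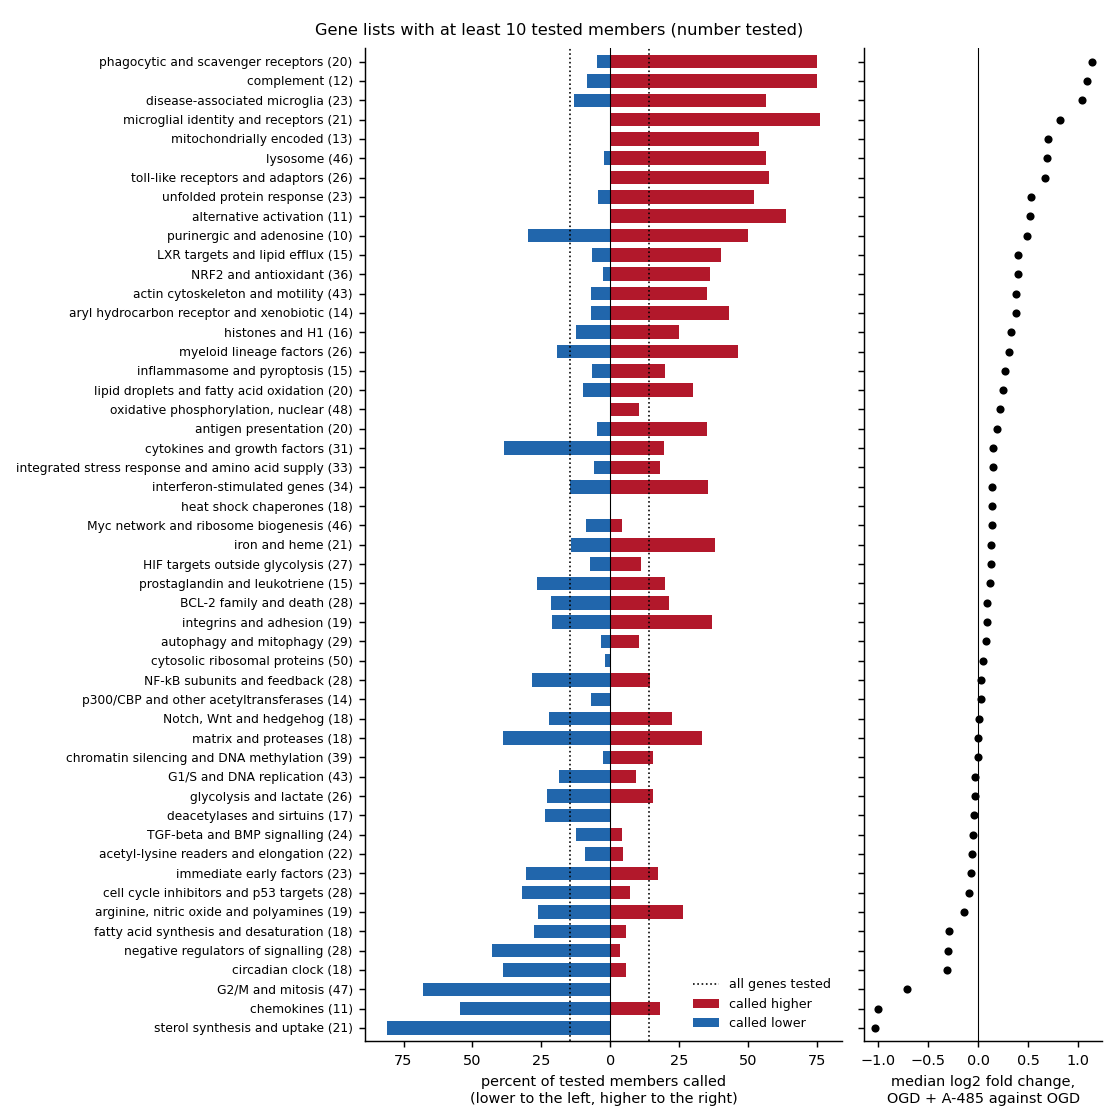
Share of tested members called higher (to the right) and lower (to the left) in each gene list, in percent, with dotted lines at the shares over all genes (14.1% and 14.6%) and the list medians of the log2 fold change in the right panel, for OGD + A-485 against OGD. Receptor, complement and lysosome lists lie to the right, and sterol synthesis, G2/M and chemokine lists to the left.

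**Figure D5:**
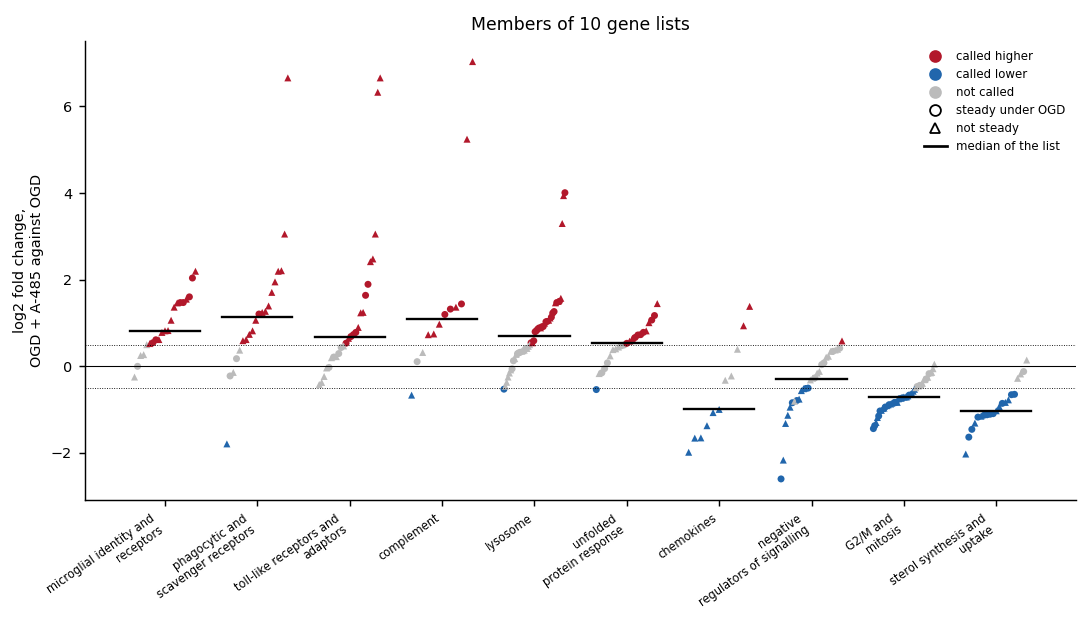
Log2 fold change of every tested member of selected lists, OGD + A-485 against OGD, 1 point per gene, colored by its call and round where steady under OGD, with the list median as a bar and dotted lines at ±0.5. All members of the sterol list except Ebp lie below 0, and no G2/M member was called higher.

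Genes of myeloid identity were higher as a group. Of 21 microglial identity genes 16 rose, none fell and the median log2 fold change was 0.82, beside 0.02 for all genes. The most marked were Fcgr1, the high-affinity immunoglobulin G receptor (2.19), Adgre1, described above, and Tyrobp, the DAP12 adaptor of Trem2 (1.60). Tyrobp was steady under OGD and had 77, 74.9 and 67.5 FPKM in control, 86.3, 75.2 and 78.6 FPKM under OGD and 229, 244 and 256 FPKM under OGD + A-485 (log2 fold change 1.60, SE 0.07, adjusted p = 2.67e-07), with every OGD + A-485 library about 3 times as high as the others. Members that did not pass included Tmem119 (0.00), Ptprc (0.25), Cd53 (0.27) and Itgb2 (0.50). Under OGD alone 9 of the 21 had risen above control and 1 had fallen. Across the scalings tried 12 to 16 of the 21 were higher and none lower.

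Lineage transcription factors moved in both directions. Of 26 tested, 12 rose and 5 fell, and 9 of the risers had been steady under OGD. The risers included Maf (2.92) and Cebpa, a master factor of myeloid commitment (2.43). Spi1, which encodes the Ets factor PU.1, had 44.1, 44.6 and 42.9 FPKM in control, 41.2, 34.8 and 39.5 FPKM under OGD and 99.3, 90.9 and 104 FPKM under OGD + A-485 (log2 fold change 1.35, SE 0.07, adjusted p = 6.11e-07), and all 3 OGD + A-485 values were more than 2 times the highest OGD value. Runx2 (-2.03), the AP-1 family member Batf (-1.01) and Mef2c (-0.83) had the largest falls.

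Receptors of uptake and of microbial sensing rose with them. Of 20 phagocytic and scavenger receptor genes 15 rose and 1 fell, with a median of 1.13, and of 26 genes for pattern recognition receptors and their adaptors 15 rose and none fell, with a median of 0.66 (both lists hold Marco and Msr1). Marco, a scavenger receptor that takes up bacteria, was measured at 0.0816, 0.12 and 0 FPKM in the OGD libraries and 16.3, 14.7 and 16.9 FPKM in the OGD + A-485 libraries, from 5 and 1374 reads in all. Irak3, an inhibitory kinase homologue of the interleukin-1 receptor pathway, was measured at 0.171, 0.0418 and 0.0967 FPKM and 15.4, 16.1 and 15.5 FPKM, from 15 and 2583 reads. Both were low in control too, at 0.12 and 0.165 FPKM. Msr1, the class A scavenger receptor (3.05), and Cd300a, an inhibitory lipid receptor (2.21), followed, and the inhibitory receptor gene Fcgr2b was the one that fell (-1.80). Complement genes rose in 9 of 12 cases (median 1.08), among them C1qb and C1qc, which encode chains of the recognition molecule C1q and are taken up with the silent genes, and C3ar1, the receptor of C3a (1.44). C1qb and C1qc reached the expression limit only in the OGD + A-485 libraries, and of the 10 genes that reached it in both groups 7 rose (median 0.86). Itgax, a subunit of complement receptor 4, fell (-0.67). Of 20 antigen presentation genes 7 were higher and 1 lower: the proteasome activator gene Psme2 rose (1.80), as did the transporter gene Tap2 (1.24) and the costimulatory gene Cd86 (1.09), and Cd80 fell (-1.33).

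The promoters of a scavenger receptor and of a lysosomal protease of macrophages are shown for the purine-rich core GAGGAA, a motif bound by PU.1. The 280 bases, from 250 before to 30 after the transcription start, are from RefSeq (GRCm38.p6), and capitals mark each match on either strand.
Marco, chr1:120504995-120505274 (- strand): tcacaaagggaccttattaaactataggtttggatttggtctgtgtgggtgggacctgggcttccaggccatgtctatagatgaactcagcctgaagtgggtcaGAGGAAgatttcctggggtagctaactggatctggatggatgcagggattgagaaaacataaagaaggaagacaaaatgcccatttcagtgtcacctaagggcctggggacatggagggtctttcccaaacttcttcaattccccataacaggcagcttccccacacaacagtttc
Ctss, chr3:95526536-95526815 (+ strand): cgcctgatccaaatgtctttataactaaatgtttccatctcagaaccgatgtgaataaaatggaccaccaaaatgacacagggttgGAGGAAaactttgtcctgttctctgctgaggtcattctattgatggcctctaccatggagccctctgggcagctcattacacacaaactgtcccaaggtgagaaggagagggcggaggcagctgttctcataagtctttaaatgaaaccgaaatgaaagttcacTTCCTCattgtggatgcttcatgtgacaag
In Marco the match began 146 bases before the start, and in Ctss there was 1 match 164 bases before it and 1 at the start. The core was present in 26.7% of the 7662 promoters of 300 bases that could be matched to a tested gene, in 9 of 10 matched promoters of the microglial identity list and in 10 of 14 of the phagocytic list. It was in 7 of the 8 promoters of identity genes that rose and both of those not called, and in 7 of 10 and 3 of 3 of the phagocytic list, so its presence did not separate them. A match describes the letters and not binding, which was not measured. Ctss, cathepsin S, had 123, 128 and 122 FPKM in control, 146, 135 and 131 FPKM under OGD and 369, 372 and 399.7 FPKM under OGD + A-485 (log2 fold change 1.47, SE 0.05, adjusted p = 8.74e-08), and the OGD + A-485 libraries stood apart from both other groups.

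Lysosomal genes rose broadly and were high against control too. Of 46 tested 26 rose and 1 fell, with a median of 0.69, and 16 of the 23 that were steady under OGD were among those that rose. Against control 39 of the 46 were higher and none lower. The cysteine cathepsin genes Ctsh (4.01), Ctsf (3.94) and Ctsk (3.30) led the list, and Ctsk, best known from osteoclasts, reached 482 ± 5.19 FPKM from 49 ± 1.44 FPKM under OGD and 24.6 ± 1.52 FPKM in control. The gene that fell was Ppt1, a palmitoyl-protein thioesterase (-0.53). Ctsz, cathepsin Z, had one of the largest rises in absolute level, with 709, 609.6 and 718 FPKM in the OGD libraries and 1258, 1151 and 1279 FPKM in the OGD + A-485 libraries (log2 fold change 0.86, SE 0.07, adjusted p = 1.05e-05), although Nelfcd lies on its opposite strand. Lyz2, the lysozyme of macrophages, rose from 95.3, 89.9 and 94.6 to 1631, 1687 and 1775 FPKM (log2 fold change 4.18, SE 0.05, adjusted p = 6.95e-10) and had 41.7, 37.8 and 39.8 FPKM in control, so that its order was control, OGD, OGD + A-485 with no overlap. Reads of Lyz2 and of its near copy Lyz1 may have been split.

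The promoter of Ctsd, cathepsin D, is shown because it held 2 copies of the E-box CACGTG (capitals), the core bound by the TFEB family.
Ctsd, chr7:142387798-142388077 (- strand): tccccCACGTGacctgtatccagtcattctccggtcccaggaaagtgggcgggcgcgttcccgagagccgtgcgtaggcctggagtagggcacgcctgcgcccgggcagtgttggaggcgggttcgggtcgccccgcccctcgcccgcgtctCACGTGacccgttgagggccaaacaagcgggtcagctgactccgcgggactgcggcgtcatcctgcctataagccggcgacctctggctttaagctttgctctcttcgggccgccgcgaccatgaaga
The copies began 245 and 98 bases before the start. The E-box was in 11 of 34 matched lysosomal promoters (32.4%) and in 11% of all. It was in 5 of the 19 promoters of lysosomal genes that rose and in 6 of 14 of those not called. Ctsd itself rose from 190.1, 205 and 206 to 449, 411 and 439.9 FPKM (log2 fold change 1.11, SE 0.05, adjusted p = 5.19e-07).

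Several chaperones and degradation factors of the endoplasmic reticulum were higher with A-485. Of 23 genes of the unfolded protein response 12 rose and 1 fell against OGD (median 0.53), where OGD itself had lowered 8 and raised none. Of the 13 that were steady under OGD 7 rose and 1 fell. Against control 8 were higher and none lower. Dnajc3, an inhibitor of the kinase PERK (1.45), Dnajb9, a cofactor of BiP (1.17), and Selenos, a selenoprotein of retrotranslocation (1.06), rose most, and Edem1, which sorts misfolded glycoproteins for degradation, fell (-0.54). Hspa5, which encodes BiP, had 173, 167 and 178 FPKM in control, 131, 122 and 128 FPKM under OGD and 225, 219 and 225 FPKM under OGD + A-485 (log2 fold change 0.82, SE 0.04, adjusted p = 5.59e-07). Its levels ran OGD, control, OGD + A-485, and its log2 fold change against control was 0.37, under the fold limit. The Hspa5 promoter is shown for the endoplasmic reticulum stress element (capitals), a CCAAT box and CCACG set 9 bases apart, which began 65 bases before the start.
Hspa5, chr2:34771840-34772119 (+ strand): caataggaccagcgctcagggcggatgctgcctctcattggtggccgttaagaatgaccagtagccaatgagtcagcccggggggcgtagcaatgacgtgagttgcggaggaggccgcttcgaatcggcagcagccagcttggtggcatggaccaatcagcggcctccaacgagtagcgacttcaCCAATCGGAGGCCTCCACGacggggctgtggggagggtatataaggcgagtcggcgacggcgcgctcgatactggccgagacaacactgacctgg
This element was found in 13 of the 7662 promoters (0.17%), and 8 of those belonged to the 20 matched genes of the list. Of these 8, 6 rose (Calr, Canx, Creld2, Dnajc3, Hspa5 and Syvn1) and the other 2 were not called. Within the list the element was in 6 of 11 promoters of genes that rose and in 2 of 8 of those not called. Over all genes it was in 6 of 1166 promoters of genes that rose and in 1 of 1201 of those that fell, so no carrier outside the list rose. Of 18 heat shock chaperone genes of the cytosol and mitochondria none was called in either direction (median 0.14), the most abundant being Hsp90ab1 (0.18) and Hsp90aa1 (-0.05).

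Of the lists with at least 10 tested members, sterol synthesis had the largest share of genes that fell. Of 21 genes for sterol synthesis and uptake 17 fell and none rose, with a median of -1.03, and 10 of the 11 that were steady under OGD fell. Idi1, isopentenyl diphosphate isomerase, fell from 9.66, 10.1 and 9.92 to 2.27, 2.47 and 2.3 FPKM (log2 fold change -2.03, SE 0.06, adjusted p = 4.33e-08). Msmo1, a demethylase of C4-methylsterols, fell from 18.7, 19.7 and 17 to 6.03, 6.38 and 5.22 FPKM (log2 fold change -1.64, SE 0.09, adjusted p = 8.65e-07). Nsdhl, which acts in the same step, fell from 9.58, 10.2 and 9.54 to 3.38, 3.28 and 3.82 FPKM (log2 fold change -1.46, SE 0.07, adjusted p = 4.97e-07). No library overlapped between the groups for these 3. Hmgcs1, an early enzyme of the pathway (-1.13), and Srebf2, which encodes the factor that drives it (-0.65), were among those that fell. The members that did not pass were Sc5d (-0.28), Dhcr7 (-0.18), Sqle (-0.12) and Ebp (0.14). Deprivation alone had lowered 5 of the 21 and raised none, and against control 19 were lower with A-485. The count of 17 lower and 0 higher was found under each of the 5 scalings tried.

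The promoter of Hmgcs1 is shown with the sterol regulatory element TCACNCCAC and the CCAAT box in capitals.
Hmgcs1, chr13:119690101-119690380 (+ strand): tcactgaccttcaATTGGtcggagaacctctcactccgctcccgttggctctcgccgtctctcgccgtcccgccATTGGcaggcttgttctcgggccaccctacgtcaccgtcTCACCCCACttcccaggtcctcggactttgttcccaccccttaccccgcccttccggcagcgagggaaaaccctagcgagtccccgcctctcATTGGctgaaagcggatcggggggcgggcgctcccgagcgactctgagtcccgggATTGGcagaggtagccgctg
The sterol element began 137 bases before the start, and 4 CCAAT boxes were found on the reverse strand. Hmgcs1 was the only 1 of the 16 matched promoters of the list with that spelling of the element, which was in 1.08% of all, while 14 of the 16 (87.5%) held a CCAAT box, against 39.4% of all promoters. Its level was 13.2, 14.1 and 12.9 FPKM in control, 12.9, 13.8 and 12.6 FPKM under OGD and 6.09, 5.98 and 5.71 FPKM under OGD + A-485 (log2 fold change -1.13, SE 0.06, adjusted p = 4.97e-07), with control and OGD together and OGD + A-485 below both.

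Fatty acid genes moved in both directions. Of 18 genes of fatty acid synthesis and desaturation 5 fell and 1 rose. Me1, the cytosolic malic enzyme that supplies NADPH, fell from 83.9, 87.8 and 84.4 to 4.36, 3.9 and 3.69 FPKM (log2 fold change -4.39, SE 0.06, adjusted p = 6.95e-10) and had 62.7, 61.7 and 62.3 FPKM in control, so that it was low in the OGD + A-485 libraries alone. Acsl3 (-1.14) and Lpin1 (-0.84), enzymes of acyl activation and glycerolipid synthesis, fell, and the elongase gene Elovl1 rose (1.03). Of 15 genes of lipid efflux 6 rose and 1 fell. Nceh1, a cholesterol ester hydrolase (1.68), Nr1h3, which encodes the sterol receptor LXRα (1.53), and Apoe, the lipid carrier (1.12), were higher and the transporter gene Abca7 was lower (-1.61). Cpt1a, which admits fatty acids to mitochondria (2.40), the scavenger receptor gene Cd36 (1.95) and the droplet coat gene Plin2 (1.68) led the 6 of 20 lipid droplet and oxidation genes that rose, and 2 fell, Ppard (-1.03) and Abhd5 (-0.56).

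Mitotic genes, many of them already lowered by deprivation, fell with A-485. Of 47 genes of G2 and mitosis 32 fell and none rose, with a median of -0.71. OGD alone had lowered 30 of the 47 and raised none, and against control 46 were lower with A-485. Ccnb2, cyclin B2, had 61.2, 60.8 and 61.6 FPKM in control, 51.2, 47.5 and 54 FPKM under OGD and 19.2, 19.1 and 17.6 FPKM under OGD + A-485 (log2 fold change -1.44, SE 0.05, adjusted p = 1.17e-07). Ccnb2 lies in a stretch of 135 genes on chromosome 9 that was lower as a whole, with a median of -0.45. Cdc25b, a phosphatase that activates the mitotic kinase, fell from 33.7, 34.1 and 36.3 to 14, 12.9 and 13.1 FPKM (log2 fold change -1.37, SE 0.06, adjusted p = 1.74e-07). Ttk, a spindle checkpoint kinase, fell from 8.3, 10.1 and 8.89 to 3.9, 3.67 and 3.34 FPKM (log2 fold change -1.30, SE 0.08, adjusted p = 2.20e-06). The first 2 were steady under OGD, as were 15 of the 47, and 11 of those 15 fell. The most abundant members that were not called were Ube2c (-0.50) and Aurka (-0.31). Across scalings 32 to 37 were lower and none higher.

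Genes of the G1/S transition and DNA replication were mostly not called against OGD. Of 43 tested 4 rose and 8 fell (median -0.03), while OGD had lowered 32 of them and 29 were lower against control. Ccnd2, cyclin D2 (0.79), and Cdc6, a licensing factor (0.68), rose, and Ccne1, cyclin E1 (-0.85), and Pole, a catalytic subunit of replicative polymerase (-0.74), fell. Among 28 genes of cell cycle inhibitors and p53 targets 9 fell and 2 rose. Cdkn2b, which encodes p15 (-2.59), and Cdkn1c, which encodes p57 (-1.63), fell most.

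The Ccnb2 promoter is shown with the CCAAT box and the cell cycle homology region, spelled TTTGAA, in capitals.
Ccnb2, chr9:70421525-70421804 (- strand): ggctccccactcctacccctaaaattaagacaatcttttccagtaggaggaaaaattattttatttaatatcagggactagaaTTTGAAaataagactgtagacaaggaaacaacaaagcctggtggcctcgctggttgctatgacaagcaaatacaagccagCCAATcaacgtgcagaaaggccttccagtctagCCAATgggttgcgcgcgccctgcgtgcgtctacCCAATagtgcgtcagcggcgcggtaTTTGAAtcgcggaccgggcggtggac
The 3 CCAAT boxes lay 33 bases apart, and 1 TTTGAA began 4 bases after the start, with another 167 bases before it. Each motif was in 28 of the 37 matched G2/M promoters (75.7%), against 39.4% and 11.7% of all promoters. The motif TTTGAA was in 21 of the 28 promoters of genes that fell and in 7 of the 9 of those not called, so its presence did not separate them.

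Inflammatory ligands that deprivation had raised were lower with A-485, though not all of them. Of 11 chemokine genes 6 fell and 2 rose, with a median of -1.0, and none of the 11 was steady under OGD, which had raised 9. Ccl3, an attractant of macrophages, had 2215, 2089 and 2369.9 FPKM in control, 5157, 5512 and 4459 FPKM under OGD and 1745, 1982 and 2098 FPKM under OGD + A-485 (log2 fold change -1.38, SE 0.10, adjusted p = 5.06e-06). Under quantile normalization the change of Ccl3 was -0.80 and no longer called. Ccl4, a close relative of Ccl3, had 575, 601 and 623 FPKM in control, 1323, 1243 and 1136 FPKM under OGD and 336, 384 and 462 FPKM under OGD + A-485 (log2 fold change -1.66, SE 0.11, adjusted p = 2.49e-06). Ccl2, the main attractant of monocytes, had 405, 402 and 393 FPKM in control, 789, 789.9 and 737 FPKM under OGD and 349, 384 and 429.7 FPKM under OGD + A-485 (log2 fold change -1.0, SE 0.07, adjusted p = 4.45e-06). In these 3 the OGD libraries were the highest of all, and the OGD + A-485 libraries lay in or below the range of control, except that the third Ccl2 library lay above it. Ccl9 (-1.99) and Ccl7 (-1.66) had the largest falls, and Ccl6 (1.38) and Pf4 (0.93) rose.

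Cytokine and growth factor genes were split, with 12 of 31 lower and 6 higher. Of the 2 groups compared, 3 of these genes, Il6 and Lif among them, reached the expression limit only under OGD and 1 only under OGD + A-485. Of the 27 that reached it in both groups 9 fell and 6 rose. Il6 fell from 4.5, 6.74 and 4.13 to 0.31, 0.521 and 0.371 FPKM (log2 fold change -3.37, SE 0.21, adjusted p = 1.84e-06), and its control level was 3.25 ± 0.186 FPKM. Lif, a cytokine of the same receptor family, fell (-3.13), as did Edn1, the vasoconstrictor endothelin 1 (-2.51). Tnf had 118, 121 and 121 FPKM in control, 181, 173 and 176 FPKM under OGD and 102, 98.1 and 109 FPKM under OGD + A-485 (log2 fold change -0.78, SE 0.04, adjusted p = 1.20e-06). Its change against control was -0.22 on the log2 scale, which was not called. The growth factor gene Igf1 (2.92) and the cytokine genes Il1a (1.61) and Il15 (1.07) rose. Nos2, the inducible nitric oxide synthase, fell from 587, 643 and 627 to 284, 266 and 293 FPKM (log2 fold change -1.14, SE 0.05, adjusted p = 2.81e-07) and stayed above its control level of 117 ± 2.07 FPKM. Spp1, the secreted phosphoprotein osteopontin, fell from 2946, 3289 and 2867 to 1026, 1013 and 1124 FPKM (log2 fold change -1.52, SE 0.07, adjusted p = 3.47e-07), below control at 1882, 1826 and 1774 FPKM. The predicted gene Gm42793 overlaps Spp1.

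Among genes that restrain signalling, some of those steady under deprivation fell too. Of 28 negative regulators 12 fell and 1 rose (median -0.30), and 5 of the 10 that were steady under OGD fell. Spry4, an inhibitor of receptor tyrosine kinase signalling, fell from 5.36, 4.27 and 4.87 to 0.627, 0.704 and 0.801 FPKM (log2 fold change -2.60, SE 0.12, adjusted p = 3.20e-07) with control at 5.04 ± 0.35 FPKM. Cish, a suppressor of STAT5 signalling (-2.17), and the phosphatase gene Dusp5 (-1.32) also fell, and Socs3 rose (0.58). Among 28 NF-κB subunit and feedback genes 8 fell and 4 rose, with Traf1 (-1.83) and Tnip3 (2.16) at the ends of the range. Among 23 immediate early factors 7 fell and 4 rose, Egr3 falling most (-2.06) and Klf2 rising most (1.99).

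Interferon-stimulated genes were split, with 12 of 34 higher, 5 lower and a median of 0.14. Besides Ifitm3, Isg20, an exonuclease (-2.63), and Oas3, an oligoadenylate synthetase (-1.04), fell. Trim30a (3.02), Slfn2 (2.09) and Parp14 (1.87) rose. Inflammasome genes rose in 3 of 15 cases, the sensor gene Nlrp1b (1.60) and the protease genes Casp1 (1.34) and Casp4 (0.98), and the cytokine gene Il18 fell (-1.16).

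Tested markers of alternative activation and of disease-associated microglia rose more often than they fell. Of 25 alternative activation genes 11 were tested. Of these 7 rose and none fell, or 5 rose at equal totals and under quantile normalization, and OGD had raised 5. Of the 10 that reached the expression limit in both groups 6 rose. Among the 14 not tested, Chil3, Retnla and Cd163 averaged 0 FPKM with A-485. Egr2 averaged 1.36 FPKM under OGD and 0.24 with A-485, and Mrc1 0 and 1.11 FPKM. Arg1, arginase 1, had 0.672, 0.409 and 0.305 FPKM in control, 9.8, 11.4 and 9.19 FPKM under OGD and 103, 105 and 118 FPKM under OGD + A-485 (log2 fold change 3.41, SE 0.20, adjusted p = 1.45e-06), with each group apart from the others. Mgl2, a macrophage lectin, rose (3.63). Of 23 genes of the disease-associated signature 13 rose and 3 fell (median 1.03), and Lyz2, Igf1 and Gpnmb (1.61) rose most while Spp1, Itgax and Ank (-0.56) fell. Odc1, which starts polyamine synthesis from the product of arginase, fell from 764, 773 and 755 to 229, 221 and 249.7 FPKM (log2 fold change -1.71, SE 0.05, adjusted p = 2.86e-08), below control at 582, 592 and 577 FPKM. Gm22748 overlaps Odc1 on the same strand. In the prostaglandin and leukotriene list 4 of 15 fell and 3 rose, and the synthase genes Ptges (-2.11) and Ptgs2 (-1.51) fell most.

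Metabolic genes of hypoxia were mostly not called, and those that were moved in both directions. Of 26 glycolytic and lactate genes 4 rose and 6 fell (median -0.03), where OGD had raised 10. Pdk3, a kinase that shuts off pyruvate dehydrogenase, had 8.04, 7.78 and 7.72 FPKM in control, 9.11, 11.8 and 9.83 FPKM under OGD and 0.134, 0 and 0.0542 FPKM under OGD + A-485 (log2 fold change -6.07, SE 0.26, adjusted p = 2.46e-07), so it was close to silent in every OGD + A-485 library. The other falls with the largest size were the phosphofructokinase genes Pfkp (-0.84) and Pfkm (-0.62), and the lactate transporter gene Slc16a1 rose (0.72). The most abundant members not called were Pkm (-0.21) and Pgk1 (-0.04). Of 27 hypoxia-inducible factor targets outside glycolysis 3 rose and 2 fell, with 2 higher and 6 lower at equal totals and 4 higher and 6 lower under quantile normalization. OGD had raised 18 of the 27 above control, and 20 were above control with A-485. The oxygen sensor gene Egln3 was an exception, falling from 332, 333 and 339 to 53.5, 52.6 and 54.2 FPKM (log2 fold change -2.65, SE 0.04, adjusted p = 2.11e-09). Of the 7 among 13 mitochondrially encoded genes that rose, mt-Nd1 (1.02) and mt-Cytb (1.01) rose most and mt-Co1 had 4205, 4945 and 4516 FPKM in the OGD libraries and 6796, 7708 and 7402 FPKM in the OGD + A-485 libraries (log2 fold change 0.68, SE 0.10, adjusted p = 2.85e-04). Mitochondrial reads were 1.14% to 1.28% of all reads in the OGD libraries, 1.66% to 2.01% in the OGD + A-485 libraries and 1.82% to 2.20% in control. Of 48 nuclear genes of oxidative phosphorylation 5 rose and none fell (median 0.21), and 1 of 50 ribosomal protein genes was called, Rpl22 (-0.51).

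Oxidase, antioxidant and xenobiotic genes rose more often than they fell. Of 36 in the antioxidant list 13 rose and 1, Me1, fell. After Cybb the largest rises were those of the metallothionein gene Mt2 (1.73) and of Sod2, the superoxide dismutase of mitochondria (1.30). Iron and heme genes rose in 8 of 21 cases and fell in 3, with the phagosomal metal transporter gene Slc11a1 (1.41) higher and the iron exporter gene Slc40a1 (-1.46) lower. Of 14 xenobiotic genes 6 rose and 1 fell, or 5 and 3 at equal totals. Abcg2, a drug efflux transporter, had 0 reads in all OGD libraries and 1263 in the OGD + A-485 libraries, at least 125-fold higher. Abcb1a, the P-glycoprotein transporter, rose (4.87). Both reached the expression limit only in the OGD + A-485 libraries, and of the 11 xenobiotic genes that reached it in both groups 3 rose and 1 fell.

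Genes of the cell surface, matrix and cytoskeleton were redistributed. Plasminogen activator genes fell: Plat, tissue plasminogen activator, from 2.45, 2.61 and 2.38 to 0.0768, 0.0203 and 0.0111 FPKM, and Plau, urokinase, from 326, 358 and 344 to 59.9, 59.8 and 66.8 FPKM. Both had been raised by deprivation, and Plaur, the urokinase receptor, rose (0.68). In the whole matrix list 6 of 18 rose and 7 fell, with the collagenase gene Mmp8 rising most (4.33). Mmp8 reached the expression limit only in the OGD + A-485 libraries, and Plat and Adamts4 only in the OGD libraries. Of the 15 matrix genes that reached it in both groups 5 rose and 5 fell. Itgb3, the β3 integrin, fell (-4.05) and Itgam, the αM integrin, rose (1.36), in a list of 19 with 7 higher and 4 lower, or 4 higher and 4 lower at equal totals. Of 43 actin and motility genes 15 rose and 3 fell, led by Marcks, an actin-binding kinase substrate (3.49), and by Arhgap15 (2.11). Itgb3 reached the limit only under OGD and Arhgap15 only under OGD + A-485. In the death list 6 of 28 rose and 6 fell, and of the 24 that reached the limit in both groups 3 rose and 6 fell. Bcl2a1a and Bcl2a1d (2.95), near-identical copies that counting may split, were both higher.

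Some genes passed between silence and clear expression. In 9 genes the mean was under 0.1 FPKM in both control and OGD and at least 5 FPKM in OGD + A-485, and in 4 the reverse was found. The 9 included the peptide hormone gene Apln, the keratin gene Krt23 and the matrix genes Crim1 and Smoc1, and the 4 were Pdk3, the joining segments Ighj1 and Ighj3 and the predicted gene Gm13025. In each of the 13 the interval for OGD against control was wider than the limit for a steady gene. Cyp2c66, a cytochrome P450 gene, had 0 reads in all control and OGD libraries and 29.2, 32.2 and 30.8 FPKM in the OGD + A-485 libraries, at least 264-fold higher against a floor of 3 reads per library, while its neighbouring genes had a median of -0.33. C1qb had 0 reads in the 6 other libraries and 13.5, 12.7 and 12.9 FPKM with A-485, at least 62.6-fold higher. Galnt12, an enzyme of mucin-type glycosylation, had 0 reads and 9.66, 8.58 and 8.91 FPKM, at least 91.4-fold higher. All 3 were expressed in each OGD + A-485 library. Vnn3, a pantetheinase, had 1 read in the OGD libraries and 26.6, 24.8 and 27.8 FPKM with A-485, a ratio of 1899 with a counting interval of 340 to 75042. Chrna9, a nicotinic receptor subunit, had 3 reads and 14.5, 13.4 and 14.4 FPKM, a ratio of 566 with an interval of 193 to 2747. C1qc had 1 read and 3.93, 4.46 and 4.06 FPKM, a ratio of 320 with an interval of 57.0 to 12665. Intervals and floors cover counting error only.

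In the other direction, Pdcd1, the inhibitory receptor PD-1, had 13, 13.6 and 13.3 FPKM in control, 14.9, 13.7 and 14.7 FPKM under OGD and 0.177, 0.0328 and 0.144 FPKM under OGD + A-485 (log2 fold change -6.13, SE 0.23, adjusted p = 1.18e-07). Lmcd1, a LIM domain coregulator, was raised by deprivation from 1.86, 2.39 and 1.78 to 5.77, 6.66 and 5.96 FPKM and had 0 reads in all OGD + A-485 libraries, at least 52.7-fold lower. Of 18 genes of the circadian clock list 7 fell and 1 rose. The immunoglobulin joining segments Ighj3 and Ighj1 had 3 to 7 and 2 to 5 reads in the OGD libraries and 0 in the OGD + A-485 libraries, so their high FPKM rested on short models and few reads. Pdcd1 was expressed in control and OGD alike and all but silent with A-485, as Pdk3 was.

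Shares of further motifs over the 7662 matched promoters were also taken by direction. The cyclic AMP response element TGACGTCA was in 3.65% of all promoters, in 1.97% of those of genes that rose and in 4.33% of those of genes that fell. The AP-1 site TGANTCA was in 4.7% of all promoters, in 5.49% of those of genes that rose and in 6.24% of those of genes that fell. TCACGTGA, the longer form of the lysosomal E-box that contains CACGTG, was in 2.22% of all, in 3.26% of those of genes that rose, in 1.08% of those of genes that fell and in 14.7% of the lysosomal ones. All motifs were searched on both strands, and these shares carry no test.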

How the data were processed

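RNA of BV2 cells was measured by RNA-seq in 3 control, 3 OGD and 3 OGD + A-485 libraries. The authors deposited FPKM per gene from reads counted with featureCounts after removal of adapter, N-base and low-quality reads (GRCm38/mm10 per the labels; aligner and strand setting not given in the sources used here). In every library 100% of the FPKM values of a gene came out as whole reads within 0.02 once its length and 1 scaling factor per library were divided out, which gave totals of 12593250 to 16091038 reads on genes. No column of other samples was left out.

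Genes whose FPKM averaged 1 or more over the 6 OGD and OGD + A-485 libraries were tested on log2(FPKM + 0.1) with limma 3.58.1 in R 4.3.3, using 3 group means over all 9 libraries and a trended prior variance. Calls took p under 0.01 with a log2 fold change beyond ±0.5, the limits in the study's methods, with Benjamini-Hochberg adjusted p beside. Simulated data made from these libraries held 11580 genes past the filter, 187 of them changed 2-fold or 4-fold. Of the 4-fold changes 95.7% were called, of the 2-fold changes 94.7% and of the unchanged genes 0.263%. The text names the 12 steady genes with the largest change in each direction, the 6 with the largest change of any gene, the 5 with the largest difference in FPKM, up to 3 risers and 3 fallers per list, Ep300, Crebbp and Tnf. For the 12 steady genes and the 6 of any gene, requirements were no overlap between groups, at least 5 FPKM in the higher group and no predicted symbol. Other genes named, and the promoters shown, were picked after their values were seen. The genes, the rule and the lists were chosen with earlier results of these data known. Promoters are from RefSeq (GRCm38.p6), matched by symbol within 1000 bases of the gene start for 7662 of 11978 symbols, and 9 motifs were searched. Alternatives were other pseudocounts, filters, scalings, limma-voom on the recovered reads, a replicate block and each library left out. Some members of the lists are not reported here.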

Additional observations from a re-analysis of the deposited data

How the results depend on the processing

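No named gene that was called changed direction under the alternatives run. The balance of some lists did turn: the integrated stress response list had 6 genes higher and 2 lower, 2 and 4 at equal totals, and 4 and 5 with the neighbours' median removed, where the integrin list had 4 and 5, and medians near 0 changed sign, that of the death list to -0.01 at equal totals and that of the cytokine list to -0.03 with the neighbours' median removed. What counted as steady under OGD mattered most: with genes not called in OGD against control taken as steady, 1141 were higher and 1128 lower with A-485, 896 and 856 of them also against control, and with the interval held within 0.3 the counts were 295 and 236, 263 and 211 of them also against control. Leaving out 1 library gave 1613 to 1734 genes higher and 1679 to 1754 lower, 612 to 700 steady genes higher and 557 to 673 lower, of which 506 to 572 and 464 to 563 were also called against control, 12 to 13 lists with at least 40% of members higher and 3 to 4 with at least 40% lower. A pseudocount of 1 gave 1483 genes higher and 1472 lower, limma-voom on the recovered reads 1737 and 1788, quantile normalization 1659 and 1784, and no filter 2329 and 2330 of 26084 genes. With the replicate number as a block 1671 were higher and 1739 lower. The numbers did not pair the libraries (correlations of same-numbered OGD and OGD + A-485 libraries after removal of group means -0.07, 0.08 and -0.02). Of the 45 genes named by rule, Ccl3 lost its call under quantile normalization (log2 fold change -0.80) and mt-Co1 without a filter, and no other call of theirs was lost. With 3 libraries per group, changes under the fold limit were not counted as absent.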
